A study of Homo sapiens with 24 samples.

Results

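The aminoacyl-tRNA synthetases of HT29 cells, an established line of human colon adenocarcinoma, were examined after treatment with metabolites of the dairy bacterium Propionibacterium freudenreichii and with TRAIL. The 36 members were taken by their gene symbols as printed in the array files: 20 cytosolic enzymes, and 16 mitochondrial ones with symbols that end in ARS2. They have 42 of the 50599 probes on the array, and are 36 of its 36337 gene names. All 36 genes, with 41 of these probes, passed the filter on dim probes and are among the 20703 genes tested. The cells stayed untreated (NT) or were treated for 6 h with 1 of 5 agents. C3/C2 was a mixture of 30 mM propionate and 15 mM acetate. SN was the bacterium's culture supernatant, diluted by a factor of 2, and propionate and acetate are its main known metabolites. TRAIL, a death receptor ligand, was given at 100 ng/ml with 2 µg/ml of anti-Flag antibody, alone or as TRAIL+C3/C2 or TRAIL+SN. Each of the 6 groups had 4 one-colour Agilent arrays, 24 in all, and all groups share the cell line. The study kept this line in DMEM with serum. SN was DMEM in which the bacterium had grown, so groups with SN did not have the same medium as the others. The study describes 2 independent experiments in duplicate, and which replicate numbers belong together is not given in the labels, so p-values measure the spread between these arrays, which may in part be technical.

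An aminoacyl-tRNA synthetase joins an amino acid to its tRNA, the step that supplies every amino acid to the ribosome. The cytosol and the mitochondrion each have their own set, all encoded in the nucleus, and the mitochondrial set serves the translation of the few proteins of the mitochondrial genome. GARS and KARS encode the enzyme of both compartments, and EPRS holds the glutamyl and the prolyl enzyme in 1 protein. Several cytosolic enzymes are held in a large complex by scaffold proteins, and many cytosolic synthetase genes are known targets of ATF4, the transcription factor of the amino acid response.

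A level below is the log2 intensity of a gene's probe after the array's 75th percentile was subtracted, so that 0 is that percentile, and a change is a difference of mean levels between groups. Levels are not compared between genes, since probes differ in brightness. The 75th percentile of intensity lay between 453 and 1009, and 49.8 to 57.8% of probes were well above background. All probes that stand for the 36 genes were well above background on all 24 arrays. The arrays lay on 4 slides: NT and C3/C2 share slides 1 and 2, SN and TRAIL share slide 3, and the co-treatments share slide 4. Slide and treatment therefore cannot be told apart when SN, TRAIL or a co-treatment is compared with NT. All 5 comparisons share the NT arrays. RNA of whole cultures was read, so a transcript in fewer cells and less of it per cell cannot be told apart. The 8 epithelial markers KRT8, KRT18, KRT20, CDH1, EPCAM, VIL1, CDX2 and CEACAM5 had all their probes well above background on all 24 arrays. Of the 8 leukocyte and fibroblast markers, COL1A2 and DCN were well above background on 0 arrays and PDGFRB on 1. Others of this list did show signal: CD14 on 24 arrays, COL1A1 on 16 and CD3E on 10. The probes of PTPRC ranged from 0 to 24 arrays.

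With every treatment that contained the acids, most mitochondrial synthetases were lower than in NT, and 4 of them fell by a factor of 2 or more in at least 1 comparison. These were WARS2, YARS2, EARS2 and SARS2, which charge mitochondrial tRNA with tryptophan, tyrosine, glutamate and serine. A call needed a change of at least a factor of 2 and a limma p, adjusted over all genes by the Benjamini-Hochberg method, under 0.05. By this rule C3/C2 called 4 of 36 members, EARS2, SARS2, WARS2 and YARS2, all lower, against 6.18% of all genes called lower and 13.4% called higher. SN called WARS2 and YARS2, both lower, where the shares of all genes were 9.75% lower and 14.2% higher. TRAIL+C3/C2 called EARS2, WARS2 and YARS2 lower, beside 7.94% of all genes lower and 16.2% higher. TRAIL+SN called the same 3 genes lower, beside 10.1% and 16.1%. TRAIL alone called 0 members by limma, also 0 at a fold of 2 and an unadjusted p under 0.05, where 2.18% of all genes were called lower and 0.749% higher. No cytosolic member and no rise was called in any of these comparisons at this scaling. With arrays scaled to their median, C3/C2 also called DARS (-1.17) and AARS (-1.02), both cytosolic. The counts of 2 to 4 among 36 members are not far from the share of all genes called lower.

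**Figure D1:**
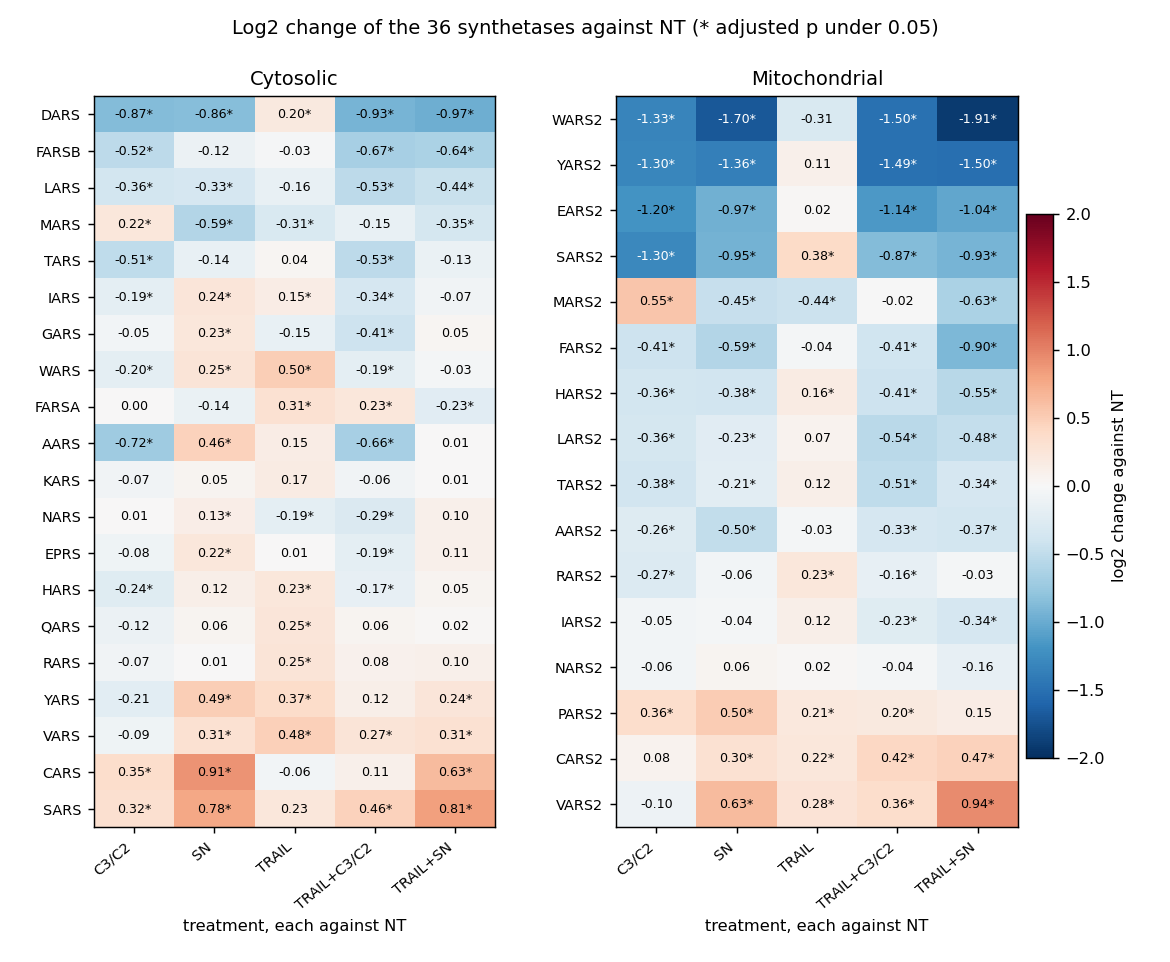
Log2 change of the 36 synthetases with each treatment against NT, with cytosolic enzymes on the left and mitochondrial ones on the right, each ordered by its median over the 5 treatments. Colour and number give the log2 change and a star an adjusted p under 0.05; WARS2, YARS2, EARS2 and SARS2 are blue in all 4 columns with acids, with WARS2 at -1.91 with TRAIL+SN.

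WARS2, the mitochondrial tryptophanyl enzyme, changed most. Its levels in NT were 0.085, 0.022, 0.43 and 0.33 for replicates 1 to 4, and with TRAIL -0.26, -0.31, 0.20 and 0.013. With C3/C2 they were -1.33, -1.40, -0.88 and -0.82, and with SN -1.80, -1.62, -1.27 and -1.25. Arrays with TRAIL+C3/C2 read -1.53, -1.35, -1.09 and -1.15, and those with TRAIL+SN read -2.10, -2.0, -1.39 and -1.29. All 16 arrays with acids lay below all 8 arrays without them. Replicates 1 and 2 lay below replicates 3 and 4 in all 6 groups, and in the 4 groups with acids this gap was smaller than the distance from NT. The change was -1.33 (SE 0.19, adjusted p = 2.87e-06) with C3/C2 and -1.70 (SE 0.19, adjusted p = 7.04e-08) with SN, folds of 2.51 and 3.25 lower. TRAIL+C3/C2 changed it by -1.5 (adjusted p = 4.53e-07) and TRAIL+SN by -1.91 (adjusted p = 1.08e-08), and TRAIL alone gave -0.31 (adjusted p = 0.23). SN and C3/C2 differed by -0.38, with a 95% interval of -0.77 to 0.022 (adjusted p = 0.11). This difference and the change with TRAIL passed the test with the replicate number as a block, as given at the end. The labels do not say that arrays of the same number share an experiment.

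YARS2, the mitochondrial tyrosyl enzyme, fell to a similar extent. Its levels were 1.72, 1.75, 1.96 and 1.81 in NT and 1.86, 1.93, 1.95 and 1.92 with TRAIL. With C3/C2 they were 0.32, 0.28, 0.74 and 0.69, and with SN 0.26, 0.25, 0.68 and 0.59. On the TRAIL+C3/C2 arrays they were 0.19, 0.12, 0.45 and 0.52, and on the TRAIL+SN arrays 0.077, 0.13, 0.59 and 0.43. The highest array with acids stood below the lowest one without. Replicates 1 and 2 lay below 3 and 4 in 5 of 6 groups. The change was -1.30 (SE 0.13, adjusted p = 1.82e-08) with C3/C2, -1.36 (SE 0.13, adjusted p = 7.29e-09) with SN. In the co-treatments it was -1.49 (adjusted p = 1.85e-09) beside C3/C2 and -1.5 (adjusted p = 1.47e-09) beside SN. The difference between SN and C3/C2 was -0.062 (95% interval -0.34 to 0.21). Its probe, 60 bases that cross an exon junction at chr12:32903012-32903682 on hg19, minus strand, is shown as the sequence that was measured.
YARS2 probe: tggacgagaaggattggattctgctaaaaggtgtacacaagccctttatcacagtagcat

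EARS2, the mitochondrial glutamyl enzyme, had levels of 0.51, 0.44, 0.47 and 0.34 in NT and 0.49, 0.58, 0.42 and 0.36 with TRAIL. The levels were -0.76, -0.85, -0.68 and -0.74 with C3/C2 and -0.72, -0.51, -0.44 and -0.45 with SN. TRAIL+C3/C2 gave -0.81, -0.91, -0.53 and -0.57, and TRAIL+SN gave -0.85, -0.68, -0.40 and -0.48. Groups with and without acids did not overlap. The change was -1.20 (SE 0.10, adjusted p = 5.76e-10) with C3/C2, and with SN it was -0.97 (adjusted p = 1.31e-08), just short of a fold of 2. The call with TRAIL+SN, -1.04 (adjusted p = 3.75e-09), rests on replicate 1 of that group, since the change without it was -0.96, and it was also -0.96 after normexp background correction.

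SARS2, the mitochondrial seryl enzyme, had levels of 1.91, 1.79, 1.86 and 2.05 in NT. TRAIL raised it, to 2.26, 2.24, 2.31 and 2.34, a change of 0.38 (adjusted p = 0.000252) that was 0.16 and did not pass the test with the spike-in probes as scale. The levels were 0.66, 0.49, 0.65 and 0.63 with C3/C2 and 0.98, 0.94, 0.96 and 0.92 with SN, and no array of one group reached the other. TRAIL+C3/C2 gave 1.03, 0.91, 1.06 and 1.12, and TRAIL+SN gave 0.84, 0.84, 1.09 and 1.12. The change was -1.30 (SE 0.07, adjusted p = 8.73e-13) with C3/C2 and -0.95 (SE 0.07, adjusted p = 1.02e-10) with SN, and the difference of 0.34 between them passed the test (adjusted p = 0.000414). The changes of -0.87 with TRAIL+C3/C2 and of -0.93 with TRAIL+SN were under a fold of 2.

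**Figure D2:**
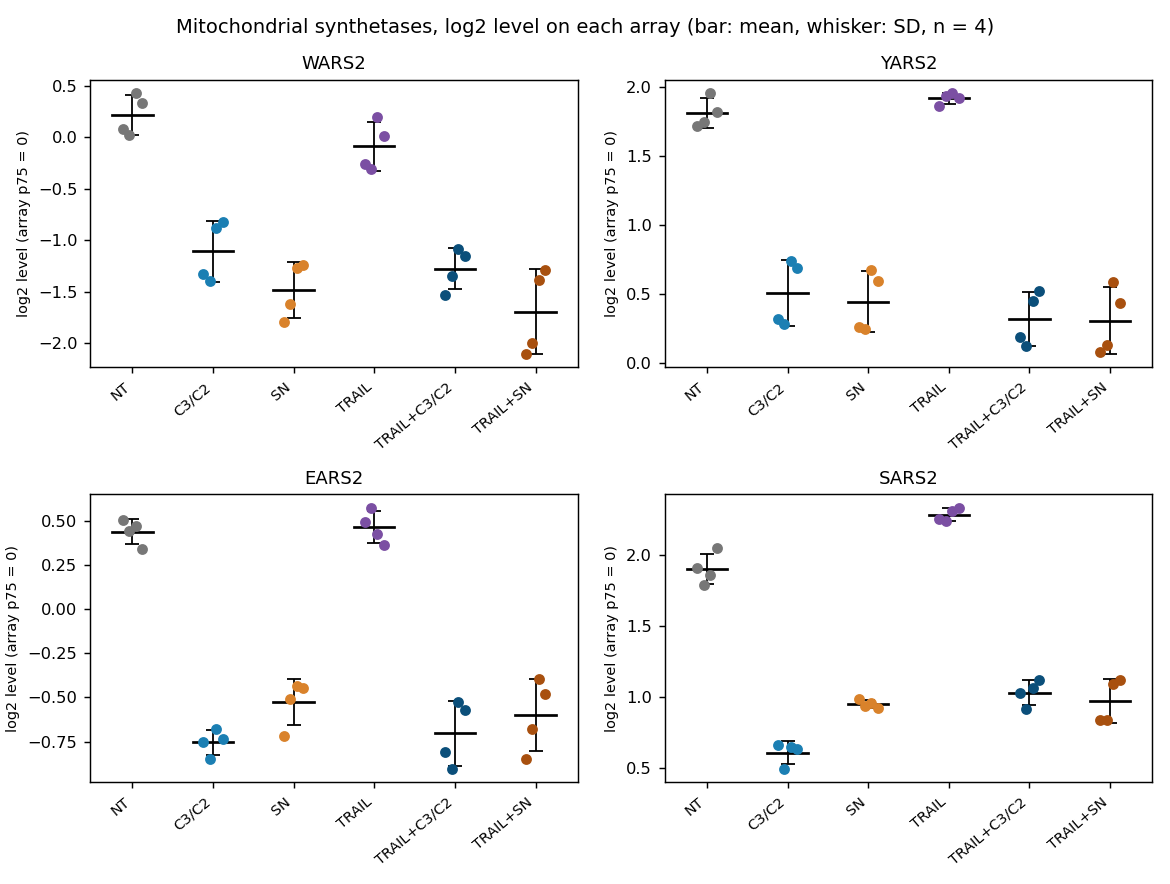
Log2 level of WARS2, YARS2, EARS2 and SARS2 on each of the 24 arrays (0 is the 75th percentile of the array), by group, with points for arrays, bars for means and whiskers for the SD of 4 arrays. In each panel the 4 groups with acids lie below NT and TRAIL; SARS2 with TRAIL lies above NT, at 2.24 to 2.34.

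For C3/C2 these falls could be read within a slide. On slide 1, with 1 array each, C3/C2 minus NT was -1.41 for WARS2, -1.40 for YARS2, -1.26 for EARS2 and -1.25 for SARS2. On slide 2 alone, with 3 arrays each, the changes were -1.30, -1.27, -1.17 and -1.31 in that order, and the same 4 calls were made. For SN, a comparison on 1 slide can be made with TRAIL, and it was added after the slides were known. There SN minus TRAIL was -1.47 for YARS2, -1.39 for WARS2, -1.34 for SARS2 and -0.99 for EARS2. TRAIL is itself a treatment, so these are not changes from untreated cells. The mean level of SARS2 was 2.29 with TRAIL and 1.90 in NT, and that of WARS2 was -0.089 and 0.22. In this comparison 8 members were higher and 19 lower past an adjusted p of 0.05, where 32.5% and 33.9% of all genes were. That split was 2 and 23 with arrays scaled to their median and 12 and 5 with the spike-in probes.

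The sequences just before the starts of these 4 genes are shown because the genes moved together. They are RefSeq's, on GRCh38.p14, 5′ to 3′ on the strand of the gene, and end at the base before the start. RefSeq sequences of this window were found for 30 of the 36 members. Both strands of 250 bases before the start were searched for TGATGNAA, the core of the ATF4 response element, and for a form of the NRF1 element, which is known from many genes for mitochondrial proteins. Capitals mark a match. TGATGNAA was in 1 of the 4, YARS2, from position -197 relative to the start, and in 3.19% of all 27305 promoters. The NRF1 element was in 0 of the 4 and in 5.53% of all promoters. For SARS2 the 180 bases up to the start of the divergent gene MRPS12 are given, and for the others 250. They lie at chr1:119140673-119140922 on the minus strand for WARS2, chr12:32755898-32756147 on the minus strand for YARS2, chr16:23557351-23557600 on the minus strand for EARS2 and chr19:38930764-38930943 on the minus strand for SARS2.
WARS2 promoter: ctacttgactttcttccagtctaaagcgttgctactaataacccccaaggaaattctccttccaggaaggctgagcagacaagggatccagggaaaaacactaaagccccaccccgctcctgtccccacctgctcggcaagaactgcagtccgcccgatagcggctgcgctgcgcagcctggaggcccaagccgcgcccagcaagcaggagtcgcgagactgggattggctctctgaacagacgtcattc
YARS2 promoter: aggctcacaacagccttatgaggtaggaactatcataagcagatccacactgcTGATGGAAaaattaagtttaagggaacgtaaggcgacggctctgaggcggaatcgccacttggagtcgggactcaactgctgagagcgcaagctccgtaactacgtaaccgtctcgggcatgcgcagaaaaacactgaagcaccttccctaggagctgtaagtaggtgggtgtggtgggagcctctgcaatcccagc
EARS2 promoter: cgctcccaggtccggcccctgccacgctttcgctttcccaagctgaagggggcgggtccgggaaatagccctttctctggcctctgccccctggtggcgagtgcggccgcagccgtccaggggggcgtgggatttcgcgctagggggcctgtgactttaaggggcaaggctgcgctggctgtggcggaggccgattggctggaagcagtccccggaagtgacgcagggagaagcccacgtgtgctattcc
SARS2 promoter: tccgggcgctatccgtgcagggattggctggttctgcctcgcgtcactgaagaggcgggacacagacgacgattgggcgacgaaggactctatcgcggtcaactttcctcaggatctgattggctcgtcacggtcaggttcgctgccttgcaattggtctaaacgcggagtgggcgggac

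The other 12 mitochondrial members moved less. At any fold past an adjusted p of 0.05, C3/C2 raised 2 of 16 mitochondrial members and lowered 10, where 35.2% of all genes rose and 27.7% fell. SN raised 3 and lowered 10 (35.1% and 34.2% of all genes). TRAIL+C3/C2 raised 3 and lowered 11 (39.9% and 29.5%), and TRAIL+SN raised 2 and lowered 11 (37.4% and 32.7%). With arrays scaled to their median the splits were 0 and 14, 2 and 10, 0 and 13, and 2 and 13 in that order, and with the spike-in probes 1 and 10, 3 and 8, 0 and 16, and 1 and 14. FARS2, the phenylalanyl enzyme, fell by 0.41 with C3/C2, 0.59 with SN and 0.90 with TRAIL+SN. It also fell past the test with TRAIL+C3/C2, from a mean level of 0.17 in NT to -0.23. HARS2, LARS2, TARS2 and AARS2, for histidine, leucine, threonine and alanine, fell with all 4 treatments, by 0.21 to 0.55 on the log2 scale, though with the spike-in probes LARS2 and TARS2 did not pass with SN. RARS2 (arginine) fell with C3/C2, -0.27 (adjusted p = 0.00211). IARS2 (isoleucine) fell only with the co-treatments, by 0.23 and 0.34, and NARS2 (asparagine) did not pass the test in any of the 5 comparisons.

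VARS2, PARS2 and CARS2 went the other way. VARS2, the valyl enzyme, rose with SN by 0.63 and with TRAIL+SN by 0.94 (adjusted p = 6.15e-12), and with C3/C2 its change was -0.10 (adjusted p = 0.137). Its 4 arrays with SN read 3.51, 3.45, 3.38 and 3.4, all above those of NT, 2.88, 2.90, 2.74 and 2.68. PARS2 (proline) rose with C3/C2, SN, TRAIL and TRAIL+C3/C2, by 0.20 to 0.50, and CARS2 (cysteine) rose with SN, TRAIL and both co-treatments, by 0.22 to 0.47. With the spike-in probes as scale, the changes with TRAIL+C3/C2 turned to -0.37 for VARS2, -0.52 for PARS2 and -0.31 for CARS2, and the rises with SN and TRAIL+SN in VARS2 still passed. On that scale PARS2 and CARS2 with TRAIL were at -0.017 and -0.0072 and CARS2 with TRAIL+SN at 0.0011, none past the test. With arrays scaled to their median, PARS2 with C3/C2 was at 0.056 and CARS2 with SN at 0.17, both short of the test. MARS2, the methionyl enzyme, rose with C3/C2, 0.55 (adjusted p = 0.00129), a rise that did not pass with arrays scaled to their median, and fell with SN, -0.45 (adjusted p = 0.00509), which was -0.11 and did not pass after normexp background correction. Its change with TRAIL+SN, -0.63, became 0.15 after that correction, so its direction there depends on that step.

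The cytosolic synthetases did not all move one way. The median change of the 20 cytosolic members was -0.10 with C3/C2 and 0.13 with SN. It was 0.16 with TRAIL, and in the co-treatments it was -0.18 when TRAIL came with C3/C2 and 0.013 when it came with SN. For the 16 mitochondrial members the medians were -0.31, -0.31, 0.11, -0.37 and -0.43 in that order. For all genes they were 0.076, -0.016, 0.033, 0.099 and 0.036. The cytosolic minus the mitochondrial median, which a constant added to an array leaves as it is, was thus 0.21, 0.43, 0.047, 0.19 and 0.44. Taken array by array against the NT mean, the difference was 0.13 to 0.16 on the C3/C2 arrays and 0.41 to 0.45 on the SN arrays. It was 0.13 to 0.23 on the arrays of TRAIL+C3/C2, 0.38 to 0.49 on those of TRAIL+SN, 0.00052 to 0.14 with TRAIL and -0.0094 to 0.029 in NT. Every array with acids lay above every NT array in this difference, and those with SN above those with C3/C2, while the TRAIL arrays reached into the range of C3/C2.

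**Figure D3:**
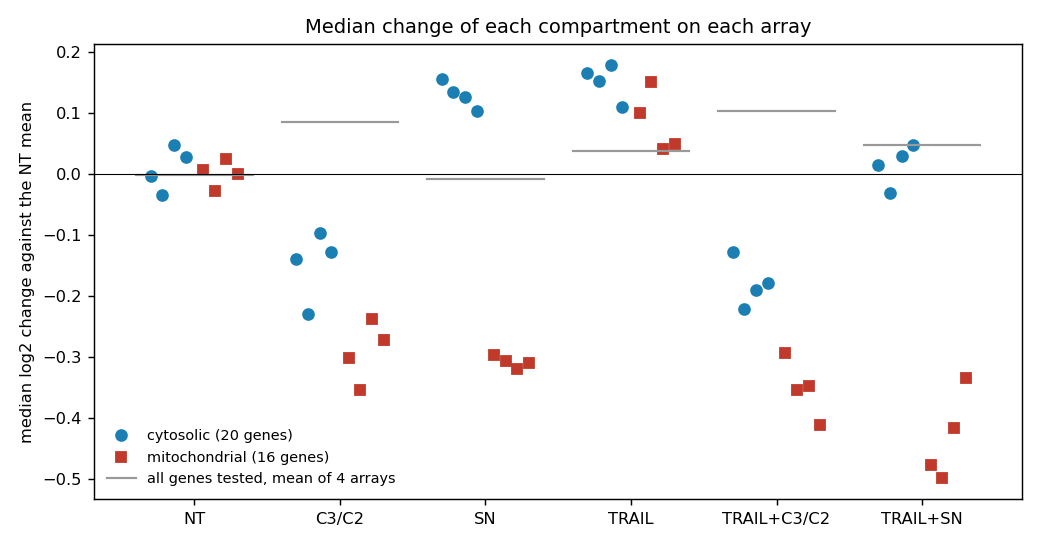
Median log2 change against the NT mean on each of the 24 arrays, for the 20 cytosolic (circles) and 16 mitochondrial (squares) synthetases, with the median of all genes tested as a grey line. On the SN arrays circles lie at 0.10 to 0.16 and squares at -0.32 to -0.30; with each array scaled to its median the cytosolic SN median becomes -0.0030, and the mitochondrial medians stay below 0 in all 4 groups with acids.

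Counted at any fold past the adjusted p, C3/C2 raised 5 and lowered 18 of 36 members, where 35.2% of all genes rose and 27.7% fell. SN raised 13 and lowered 13 (35.1% and 34.2% of all genes). TRAIL raised 15 and lowered 3 (20.3% and 13.1%), TRAIL+C3/C2 raised 6 and lowered 22 (39.9% and 29.5%), and TRAIL+SN raised 6 and lowered 16 (37.4% and 32.7%). These splits move with the scaling of the arrays. With each array scaled to its median they were 0 and 31 for C3/C2, 7 and 14 for SN, and 18 and 0 for TRAIL. The co-treatments had 0 and 29 (TRAIL+C3/C2) and 4 and 21 (TRAIL+SN). By quantile normalization they were 7 and 3 for TRAIL, 3 and 25 (TRAIL+C3/C2) and 4 and 20 (TRAIL+SN). Scaled to the spike-in probes they were 1 and 20 for C3/C2, 0 and 5 for TRAIL, 0 and 36 (TRAIL+C3/C2) and 2 and 30 (TRAIL+SN). Scaling to the median moved the median change of all genes with C3/C2 from 0.076 to -0.22, and the spike-in probes moved that with TRAIL+C3/C2 from 0.099 to -0.63.

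Among the cytosolic members, SN raised 10 and lowered 3 of 20 (DARS, LARS and, by the probe used, MARS), and C3/C2 raised 3 and lowered 8. Of all genes, SN raised 35.1% and lowered 34.2%, and C3/C2 raised 35.2% and lowered 27.7%. In the multisynthetase complex, 8 of the members, SN raised 2 and lowered 3, with a median change of 0.033. Outside it SN raised 8 of 12 and lowered 0, with a median of 0.24. With arrays scaled to their median the cytosolic median with SN was -0.0030, so that the rises with SN are relative to the scale. With C3/C2 the complex had 1 higher and 3 lower and the others 2 higher and 5 lower. The cytosolic members with values on every array below were chosen after their values were seen, as none was called at a fold of 2.

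AARS, the alanyl enzyme, moved in opposite directions with C3/C2 and SN. Its levels were 1.58, 1.52, 1.55 and 1.62 in NT and 1.77, 1.77, 1.72 and 1.62 with TRAIL. They were 1.02, 0.79, 0.79 and 0.81 with C3/C2 and 2.21, 2.28, 1.79 and 1.85 with SN. TRAIL+C3/C2 gave 0.95, 0.90, 0.87 and 0.92, and TRAIL+SN gave 1.82, 1.73, 1.14 and 1.62. All C3/C2 arrays lay below NT and all SN arrays above it, and the TRAIL+SN arrays spread across the NT range. The change was -0.72 (SE 0.12, adjusted p = 1.89e-05) with C3/C2 and 0.46 (SE 0.12, adjusted p = 0.00161) with SN, so that SN exceeded C3/C2 by 1.18 (adjusted p = 9.59e-08), and TRAIL+SN exceeded TRAIL+C3/C2 by 0.67 (adjusted p = 0.000149). Both single changes kept their direction and passed the test under all 4 other scalings and background corrections (scaling to the median, quantile, spike-in, normexp).

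CARS, the cysteinyl enzyme, had the largest cytosolic rise. Its levels were 0.42, 0.46, 0.68 and 0.71 in NT, 0.90, 0.85, 0.94 and 0.99 with C3/C2 and 1.52, 1.51, 1.46 and 1.41 with SN. They were 0.41, 0.38, 0.59 and 0.65 with TRAIL. TRAIL+C3/C2 gave 0.66, 0.66, 0.60 and 0.77, and TRAIL+SN gave 1.28, 1.21, 1.09 and 1.21. The SN arrays lay above all others, and those with TRAIL+SN above all arrays without SN. The change was 0.91 (SE 0.073, adjusted p = 4.46e-10) with SN and 0.63 (adjusted p = 1.07e-07) with TRAIL+SN, and the latter was 0.17 and did not pass with the spike-in probes. The rise with C3/C2, 0.35 (adjusted p = 0.000244), was 0.051 and did not pass the test with arrays scaled to their median. The probe, 60 bases across an exon junction at chr11:3038483-3039103 on hg19, minus strand, is given as what was measured.
CARS probe: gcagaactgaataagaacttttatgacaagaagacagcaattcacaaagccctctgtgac

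DARS, the aspartyl enzyme and a member of the complex, fell with the acids in either form. Its levels were 4.15, 4.12, 4.08 and 4.08 in NT and 4.32, 4.32, 4.31 and 4.28 with TRAIL. They were 3.36, 3.24, 3.22 and 3.14 with C3/C2 and 3.32, 3.33, 3.26 and 3.11 with SN. TRAIL+C3/C2 arrays read 3.21, 3.20, 3.16 and 3.16, and TRAIL+SN arrays 3.01, 3.16, 3.21 and 3.15. The 16 arrays with acids lay below all others. The change was -0.87 (SE 0.055, adjusted p = 1.17e-11) with C3/C2 and -0.86 (SE 0.055, adjusted p = 1.19e-11) with SN, close to a fold of 2, and SN and C3/C2 differed by 0.012 with a 95% interval of -0.10 to 0.13. It reached a fold of 2 with TRAIL+C3/C2 and TRAIL+SN under scaling to the median, quantile normalization, normexp (with TRAIL+SN only) and spike-in scaling. With C3/C2 alone it reached a fold of 2 under scaling to the median, at -1.17.

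WARS, the tryptophanyl enzyme and a known interferon target, rose with TRAIL and did not rise past the test with either co-treatment. Its levels were 1.86, 1.85, 2.10 and 2.16 in NT and 2.46, 2.38, 2.53 and 2.59 with TRAIL, without overlap. They were 1.78, 1.73, 1.87 and 1.78 with C3/C2 and 2.31, 2.28, 2.25 and 2.13 with SN. The TRAIL+C3/C2 arrays read 1.92, 1.69, 1.81 and 1.80, and the TRAIL+SN arrays 1.96, 1.92, 1.92 and 2.04, below all TRAIL arrays. The change was 0.50 (SE 0.071, adjusted p = 2.1e-05) with TRAIL. In the co-treatments it was -0.19 (adjusted p = 0.0239) beside C3/C2 and -0.032 (adjusted p = 0.708) beside SN. SN gave 0.25 (adjusted p = 0.00356), which was 0.12 and did not pass with arrays scaled to their median, and with the spike-in probes the rise with TRAIL was 0.27 and did not pass the test.

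**Figure D4:**
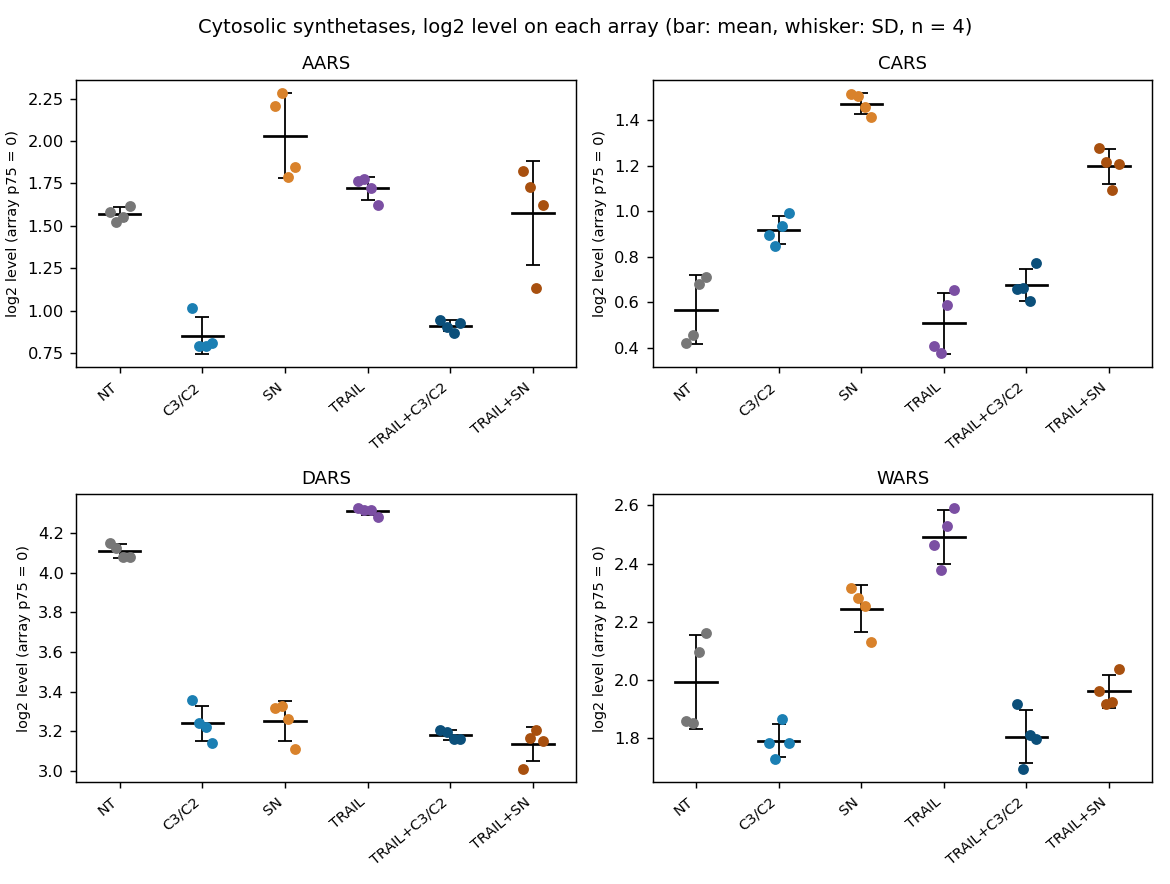
Log2 level of AARS, CARS, DARS and WARS on each of the 24 arrays (0 is the 75th percentile of the array), by group, with bars for means and whiskers for the SD of 4 arrays. AARS is lower with C3/C2 and higher with SN, CARS is highest with SN, DARS is lower in all 4 groups with acids, and WARS is highest with TRAIL, at 2.38 to 2.59.

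Of the remaining cytosolic members, SARS and YARS, for serine and tyrosine, rose with SN by 0.78 and 0.49, and VARS (valine) by 0.31. FARSB, a subunit of the phenylalanyl enzyme, fell with C3/C2, -0.52 (adjusted p = 0.000389), and its partner FARSA read 0.0028 (adjusted p = 0.977). TARS (threonine) fell with C3/C2 by 0.51 and LARS (leucine) by 0.36, and LARS also with SN by 0.33, which the spike-in scale did not pass. With TRAIL+C3/C2 and TRAIL+SN, LARS was at -0.53 and -0.44 and FARSB at -0.67 and -0.64. TARS fell with TRAIL+C3/C2, from a mean level of 4.09 in NT to 3.56. GARS, EPRS and NARS, for glycine, glutamate with proline, and asparagine, fell with TRAIL+C3/C2 by 0.41, 0.19 and 0.29, and their rises with SN, 0.13 to 0.23, did not pass with arrays scaled to their median. KARS (lysine) passed the test in 0 of the 5 comparisons, and QARS and RARS (glutamine, arginine) only with TRAIL, both at 0.25 and at 0.021 and 0.022 with the spike-in probes.

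MARS and SARS have probes that disagree. The MARS probe used, at chr12:57910373-57910432 on hg19, read 3.74, 3.83, 3.98 and 3.93 in NT, 4.02, 4.06, 4.15 and 4.14 with C3/C2 and 3.42, 3.56, 3.04 and 3.11 with SN. The other, at chr12:57884057-57884116, read -0.16, -0.52, -0.18 and -0.26, -0.27, -0.29, -0.38 and -0.25 and 0.11, 0.25, -0.088 and 0.12 in that order. The first fell with SN and the second rose: the changes were -0.59 (adjusted p = 5.57e-06) and 0.38 (adjusted p = 0.00279). In RefSeq the 3′ end of this gene overlaps DDIT3 by 65 bases, and DDIT3, the stress factor CHOP, rose with SN by 3.78. Any part of that overlap in the signal of the MARS probe was not tested, and MARS, counted by this probe throughout, has no settled direction with SN.

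For SARS, the probe at chr1:109780709-109780768 read 3.80, 3.81, 4.09 and 4.06 in NT, 4.11, 4.05, 4.49 and 4.39 with C3/C2 and 4.71, 4.64, 4.79 and 4.74 with SN. The probe at chr1:109759720-109759779, which the files assign to a non-coding transcript, read 0.19, 0.081, 0.20 and 0.13, -0.19, -0.027, -0.27 and -0.10 and 1.02, 0.84, 0.96 and 0.90. With C3/C2 these changed by 0.32 (adjusted p = 0.0128) and -0.30 (adjusted p = 0.00829), in opposite directions, the first of which was 0.016 and did not pass with arrays scaled to their median, and a probe at chr1:109779432-109779491 by 0.63 (adjusted p = 1.13e-05). With SN all 3 SARS probes rose, by 0.78 (adjusted p = 1.25e-06), 0.78 (adjusted p = 2.39e-07) and 0.95 (adjusted p = 3.04e-08). The 3 probes of IARS, for isoleucine, did not oppose each other past the test.

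SN holds the acids of C3/C2, but it is also a medium in which the bacterium grew, with whatever else was released or taken up. The comparison of both asks how the synthetases differ between the whole supernatant and these acids. Which property of SN goes with a difference was not tested. SN exceeded C3/C2 in 16 members and fell below it in 3, past the adjusted p, where 21.7% of all genes were higher and 25.7% lower. Of the cytosolic members 12 of 20 were higher and 1 lower, with a median difference of 0.33, and of the mitochondrial ones 4 of 16 were higher and 2 lower, with a median of 0.12. For all genes the median was -0.047. With arrays scaled to their median the split was 25 and 2. Among the higher ones AARS differed most, by 1.18, then VARS2 by 0.74, YARS by 0.70 and CARS by 0.55. The 3 lower ones were MARS2 (-1.0), MARS by the probe at the DDIT3 end (-0.81) and AARS2 (-0.24, which was -0.066 and did not pass with arrays scaled to their median). These groups lie on different slides. TRAIL+SN and TRAIL+C3/C2 lie on 1 slide, and there 10 members were higher and 4 lower (15.9% and 21.7% of all genes). With arrays scaled to their median the split was 14 and 3, and with the spike-in probes 17 and 0. The higher ones were AARS, CARS, EPRS, GARS, HARS, IARS, NARS, SARS, TARS and VARS2, from 0.22 for HARS to 0.67 for AARS. FARSA, FARS2, HARS2 and MARS2 were lower, from -0.13 to -0.62, none of them past the test with the spike-in probes, where HARS2 turned to 0.13.

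**Figure D5:**
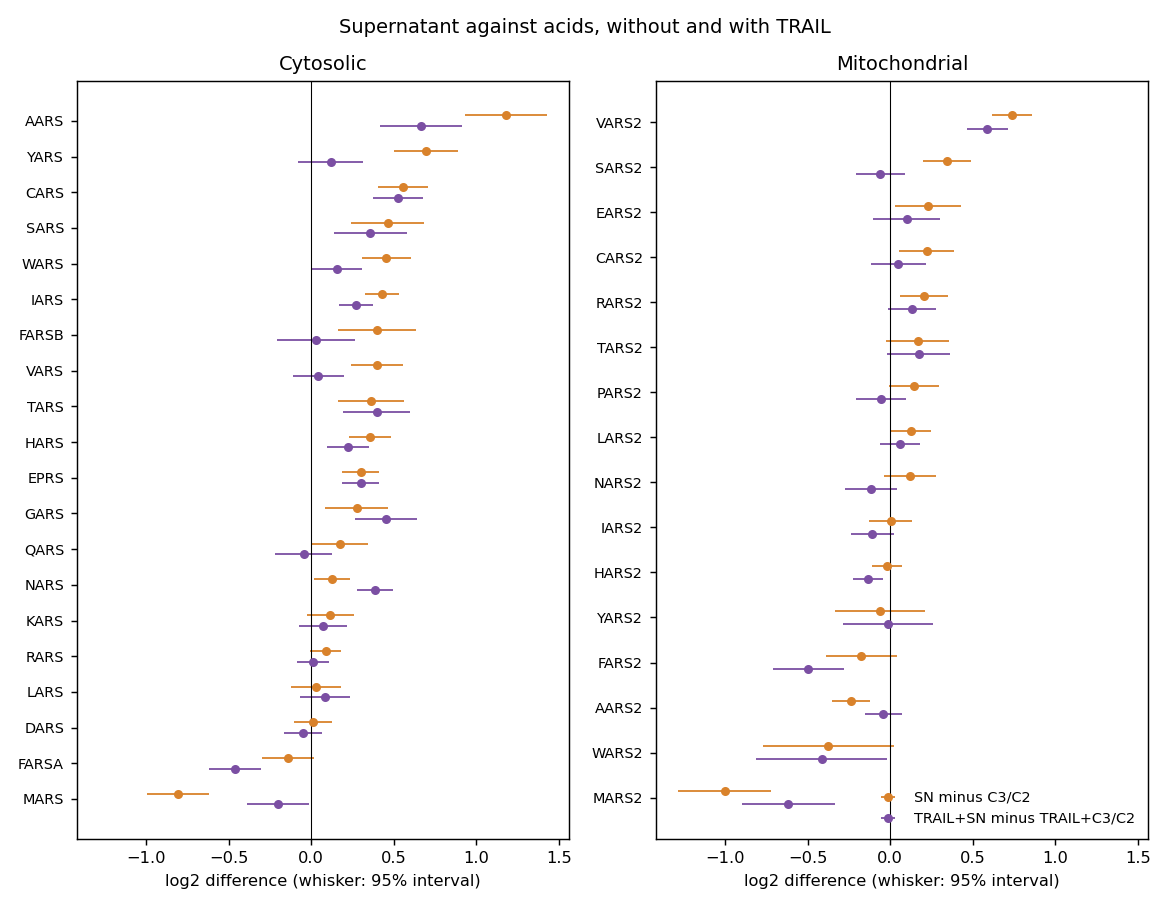
Log2 difference between SN and C3/C2 (orange) and between TRAIL+SN and TRAIL+C3/C2 (purple) for each synthetase, with 95% intervals from limma, ordered by the first. AARS heads the cytosolic panel at 1.18 and 0.67, and DARS lies near 0 in both, at 0.012 and -0.048.

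TRAIL alone moved the synthetases by less than a fold of 1.5, from -0.44 for MARS2, which was 0.013 after normexp correction, to 0.50 for WARS. It raised 9 of the 20 cytosolic members, WARS, VARS, YARS, FARSA, QARS, RARS, HARS, DARS and IARS, and lowered NARS. Of all genes, 20.3% rose and 13.1% fell. MARS was at -0.31 by the probe at the DDIT3 end, which passed, and at 0.025 by its other probe, which did not. None of the 9 passed with the spike-in probes as scale, where DARS turned to -0.029 and IARS to -0.078. The median of the cytosolic members, 0.16, became -0.070 with the spike-in probes, and that of the mitochondrial ones, 0.11, became -0.12. The interaction is the part of a co-treatment's log2 change that the changes with TRAIL alone and with C3/C2 or SN alone do not add up to. It combines groups that lie on different slides, so slide and treatment cannot be told apart in it either. For TRAIL with C3/C2 it passed in 0 members upward and 2 downward, WARS at -0.48 (adjusted p = 0.00944) and IARS at -0.30 (adjusted p = 0.022), where 1.74% and 1.14% of all genes passed. Without TRAIL replicate 2 it passed in 1. For TRAIL with SN it passed in 1 upward, the MARS probe at the DDIT3 end, and 14 downward (11% and 12.2% of all genes). By quantile normalization it was 3 and 13, and with arrays scaled to their median 0 and 21, without MARS. The 14 were 9 cytosolic and 5 mitochondrial members, led by WARS at -0.78 (adjusted p = 2.38e-05), YARS at -0.61 (adjusted p = 0.0021), AARS at -0.61 (adjusted p = 0.0121) and PARS2 at -0.57 (adjusted p = 0.000505). Of the 4 mitochondrial members called, SARS2 passed, -0.36 (adjusted p = 0.011), and WARS2, YARS2 and EARS2 did not, with intervals of -0.47 to 0.66, -0.63 to 0.14 and -0.39 to 0.19.

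HARS and HARS2, the cytosolic and mitochondrial histidyl enzymes, start 85 bases apart in opposite directions, and the 84 bases between their starts are shown, on the strand of HARS, at chr5:140691371-140691454 on the minus strand on GRCh38.p14. Both fell with C3/C2, by 0.24 and 0.36, and both rose with TRAIL, by 0.23 and 0.16, where the spike-in scale gave 0.0052 and -0.067. With SN, HARS2 fell, -0.38 (adjusted p = 8.13e-08), and HARS read 0.12 (adjusted p = 0.0919). The levels of HARS with SN were 3.31, 3.18, 3.23 and 3.21 against 3.13, 3.11, 3.09 and 3.14 in NT, while those of HARS2 were 2.39, 2.36, 2.32 and 2.37 against 2.69, 2.67, 2.81 and 2.79. SN minus C3/C2 was 0.36 (adjusted p = 6.24e-05) in HARS and -0.021 (adjusted p = 0.72) in HARS2. Of the 30 members with a RefSeq sequence, 10 have a divergent start within 1000 bases, HARS and HARS2 among them. The share over all genes was not counted.
HARS to HARS2: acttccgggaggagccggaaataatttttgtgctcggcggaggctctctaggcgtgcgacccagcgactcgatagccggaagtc

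The motif TGATGNAA was found before 2 cytosolic genes of 16 with a sequence, AARS from position -187 and IARS from -13 relative to the start, both as its reverse complement, in capitals. With YARS2 this makes 3 of 30 members. The NRF1 element was found in 4 of 30, SARS, TARS, IARS2 and MARS2. No member had both, so the matches do not overlap. The promoters of AARS, at chr16:70289507-70289756 on the minus strand, and IARS, at chr9:92293698-92293947 on the minus strand, are shown because they hold the motif. Both genes fell with C3/C2 and rose with SN, though the rise of IARS, 0.24, was 0.11 and did not pass with arrays scaled to their median. WARS moved the same ways, from a mean level of 1.99 in NT to 1.79 with C3/C2 and 2.25 with SN. Its promoter had 0 matches of the motif. Those of CARS and SARS, which rose with SN, had 0 matches as well. YARS2, which holds the motif, fell with both, from a mean level of 1.81 in NT to 0.51 with C3/C2 and 0.44 with SN. A link between the motif and these changes was not tested.
AARS promoter: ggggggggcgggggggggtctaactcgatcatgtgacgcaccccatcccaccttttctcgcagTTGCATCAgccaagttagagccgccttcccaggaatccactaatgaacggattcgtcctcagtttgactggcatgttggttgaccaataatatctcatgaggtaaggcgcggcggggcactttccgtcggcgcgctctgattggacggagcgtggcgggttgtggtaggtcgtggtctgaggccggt
IARS promoter: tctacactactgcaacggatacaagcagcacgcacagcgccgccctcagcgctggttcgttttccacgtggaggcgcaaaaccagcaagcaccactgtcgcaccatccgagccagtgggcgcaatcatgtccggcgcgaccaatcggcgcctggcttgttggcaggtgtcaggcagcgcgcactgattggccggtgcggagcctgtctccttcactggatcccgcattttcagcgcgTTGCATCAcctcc

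Genes outside the synthetases were read as lists beside them. Of 28 tested targets of ATF4 other than synthetases, SN raised 24 and lowered 1 (35.1% and 34.2% of all genes), with a median change of 1.12. C3/C2 raised 13 and lowered 6 of them (35.2% and 27.7%), with a median of 0.22. TRAIL+SN raised 22 and lowered 2 (37.4% and 32.7% of all genes), and TRAIL+C3/C2 raised 15 and lowered 7 (39.9% and 29.5%). TRAIL raised 9 and lowered 1 of these targets (20.3% and 13.1%). Among them CHAC1, which degrades glutathione, changed by 5.03 (adjusted p = 4.71e-11) with SN and 1.62 (adjusted p = 0.000404) with C3/C2. ATF3, a stress transcription factor, changed by 3.78 and 0.76, and DDIT3 by 3.78 and 0.50 (adjusted p = 0.169). ATF4 itself, named after its values were seen, changed by 0.88 (adjusted p = 6.03e-06) with SN and 1.28 (adjusted p = 2.77e-08) with TRAIL+SN.

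Of the 3 scaffolds of the complex, AIMP1 and AIMP2 fell with C3/C2 by 0.88 and 0.98 and with SN by 0.41 and 1.38. AIMP2 is known to hold DARS in the complex. EEF1E1 read -0.058 (adjusted p = 0.639) and -0.19 (adjusted p = 0.0927). Of 11 genes of tRNA delivery and supply in the cytosol, C3/C2 raised 0 and lowered 8 (35.2% and 27.7% of all genes). SN raised 1 and lowered 7 of them (35.1% and 34.2%). With C3/C2 and SN, PSTK, a kinase for selenocysteine, was at -1.76 and -1.85. TRNT1, which adds the CCA end to tRNA in both compartments, was at -1.20 and -1.34. SEPSECS, the next enzyme of selenocysteine, was at -0.91 and -1.10. Of 11 genes of the mitochondrial side, C3/C2 raised 1 and lowered 4 and SN raised 3 and lowered 3. The counts with SN are not far from the shares of all genes. MTIF2, a mitochondrial initiation factor, fell by 1.57 and 1.19, and PET112, which helps to make glutaminyl tRNA from the product of EARS2, fell by 0.89 and 0.95. MRRF, a ribosome recycling factor, fell by 0.49 and 0.41.

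Markers of other cell types also moved in this single cell line. CD14 rose by 0.81 with C3/C2 and 1.16 with SN. COL1A1 was not well above background in NT or TRAIL and was at least 19.7-fold higher with C3/C2 and at least 36.1-fold higher with SN, as a bound from the dimmest probes that still counted as above background in NT. Of the 8 epithelial markers, C3/C2 raised 4 and lowered 4 (35.2% and 27.7% of all genes), with a median change of 0.0046. SN raised 4 and lowered 1 of these markers (35.1% and 34.2%), with a median of 0.19. Among them CDX2 rose by 0.82 and 1.26, CDH1 by 0.93 and 1.07 and KRT20 by 0.54 and 0.46, while KRT8 fell with C3/C2 by 0.36. The part of these shifts in the synthetase values was not tested.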

How the data were processed

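RNA of HT29 cells was read on 24 Agilent one-colour arrays, 4 per group, on 4 slides. Per the file headers, the deposited intensity of each spot is the processed signal of Agilent's Feature Extraction software, after background subtraction and with no scaling between arrays. A table of scaled intensities for the same arrays, also deposited by the authors, was an alternative. Its values equal the intensity divided by each array's median, and their log2 was taken. The 24 columns that hold the present flags of those values were not used. Control spots and outlier flags were left out, spots of a probe were averaged, and log2 intensity minus the array's 75th percentile was taken. No spot was saturated. A probe was kept where 1 or more groups had it well above background on each of their 4 arrays, by the majority or an even split of its spots (27957 probes), and a gene was read from its probe with the highest mean. The 20703 genes were fitted with limma 3.58.1 (R 4.3.3): lmFit and eBayes, 6 group means, 18 residual degrees of freedom, and Benjamini-Hochberg adjustment. Calls need a fold of 2 and an adjusted p under 0.05. The procedure was tested on simulated data.

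The members and the lists of other genes were chosen with earlier results of these data known. Values on every array are given for up to 4 members of each compartment with the largest change among those called, and for members with probes that disagree past the adjusted p. No cytosolic member was called, and AARS, CARS, DARS and WARS were chosen after their values were seen. From each list of other genes the 3 with the largest change are named. Alternatives were other scalings (array median, quantile, and, chosen after seeing the data, spike-in probes), normexp background correction, other probe rules, the replicate number or the slide as a block, slides alone, unadjusted p, and each array left out. Their number limits the precision. Sequences before gene starts are RefSeq's (GRCh38.p14), and probe positions are on hg19. Both builds were kept apart. The values of 1 cell type marker are not reported here.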

Additional observations from a re-analysis of the deposited data

Results flagged for a closer look

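A single array stood apart from the other 3 of its group, by Dixon's test at its 95% limit, in 8 of 216 sets of 4 levels, where chance flags about 1 in 20 groups, or 10.8 of 216. With C3/C2, replicate 1 was at 1.02 for AARS, where the others were at 0.79 to 0.81, and at 3.75 for IARS, where the others were at 3.64 to 3.66. In NT, replicate 3 was at 4.43 for EPRS, and the others were at 4.36. With TRAIL+SN, replicate 3 was at 1.91 for FARSA, below the others at 2.13 to 2.17. With SN, replicate 4 was at 2.07 for YARS, below 2.18 to 2.19. With TRAIL+C3/C2, replicate 1 was at 0.30 for LARS2, above 0.17 to 0.18. With TRAIL, replicate 1 was at -4.01 for MARS2, above -4.30 to -4.25, and replicate 3 was at 1.02 for NARS2, below 1.23 to 1.25.

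The change with C3/C2 or SN differed with and without TRAIL, by the interaction past an adjusted p of 0.05, in 17 cases. These groups lie on different slides, so slide and treatment cannot be told apart here. For C3/C2 the difference was -0.30 in IARS and -0.48 in WARS on the log2 scale. For SN the cytosolic members were WARS at -0.78, YARS at -0.61, AARS at -0.61, FARSB at -0.49, VARS at -0.48, IARS at -0.46, FARSA at -0.41, DARS at -0.32 and HARS at -0.30. The mitochondrial members were PARS2 at -0.57, IARS2 at -0.42, SARS2 at -0.36, HARS2 at -0.33 and LARS2 at -0.31. MARS was at 0.54, by a probe that its other probe opposed with SN.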

How the results depend on the processing

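Over 39 settings, 11 of the 12 calls at a fold of 2 against NT were kept in every fit that tested them. The authors' table repeats the scaling to the array median, so it is not a separate check. Smaller changes of single members turned in direction with the scaling or the background correction, as given beside them for MARS2, VARS2, PARS2, CARS2, DARS, IARS and HARS2, and so did the median cytosolic change with TRAIL, from 0.16 to -0.070 with the spike-in probes. EARS2 with TRAIL+SN, at -1.04, became -0.96 after normexp correction and without TRAIL+SN replicate 1. Counts of members called rose with the scaling: SN from 2 to 4 (array median, quantile, the authors' table), TRAIL+C3/C2 from 3 to 7 (array median, the authors' table) and 17 (spike-in probes), and TRAIL+SN from 3 to 6, 5 by quantile and 9 with the spike-in probes. With C3/C2 the cytosolic members DARS, at -1.17, and AARS, at -1.02, were called as well (array median, the authors' table). The interaction of TRAIL with C3/C2 passed in 2 members and in 5 (array median, the authors' table), 4 (normexp), 1 (no filter, dimmest probe), 8 (unadjusted p) and 11 (spike-in probes), and that with SN in 15 and in 23 with the spike-in probes. The cytosolic minus mitochondrial median moved with C3/C2 from 0.21 to 0.19 (quantile, slide 2 alone), with SN from 0.43 to 0.40 (quantile), 0.34 (normexp) and 0.49 (dimmest probe), and after normexp to 0.12 (TRAIL+C3/C2) and 0.37 (TRAIL+SN). The cause was not tested. Leaving out 1 array gave 0.17 to 0.22 for C3/C2 in that difference, 0.40 to 0.47 for TRAIL+SN, and 1 to 3 members for the interaction with C3/C2.

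With the replicate block the interaction of TRAIL with C3/C2 passed in 7 members, SN differed from C3/C2 in 21 upward and 5 downward, and WARS2 passed in that comparison (-0.38, adjusted p = 0.000469, limma) and with TRAIL (-0.31, adjusted p = 0.00359, limma). No call at a fold of 2 changed. Arrays of the same number correlated at 0.062 to 0.47 in their deviations, and 23 of 24 correlated best with their own number, a hint from the data and not from the labels.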
